A study of Homo sapiens with 12 samples.

Results

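Amino acid transporters of hCMEC/D3, a human cell line from the endothelium of brain capillaries that serves to study the blood-brain barrier in culture, were followed in RNA sequencing of cells given SiNPs, taken here to be silica nanoparticles. The set was chosen by gene name, with earlier results of these data known. It holds 10 of the 58735 genes in the deposited table: SLC7A1, SLC7A2, SLC7A5, SLC7A6, SLC7A8, SLC3A2, SLC1A4, SLC1A5, SLC38A1 and SLC38A2. The study compared untreated cells with cells given particles of 35 nm or of 58 nm, the dose being 100 µg/mL and the exposure 24 h for both sizes, and 4 libraries were made for each of the 3 groups. All 12 libraries came from the same cell line in the same endothelial culture medium, and no genotype differs between groups. The sources used here do not say whether controls received a vehicle. Nor do they say that each library stands for a culture of its own, so p-values describe the spread among these libraries, which may be technical.

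Cells take up amino acids through carriers that differ in substrate, in dependence on sodium and in the gradient they spend. LAT1 (SLC7A5), LAT2 (SLC7A8) and y+LAT2 (SLC7A6) are light chains that reach the plasma membrane bound by a disulphide bridge to the heavy chain SLC3A2, also called CD98, and exchange amino acids across it. LAT1 with CD98 is the well known route for large neutral amino acids such as leucine and phenylalanine, and for the drug L-DOPA, across brain capillary endothelium. CAT-1 (SLC7A1) and CAT-2 (SLC7A2) carry arginine, lysine and ornithine. ASCT1 (SLC1A4) and ASCT2 (SLC1A5) exchange small neutral amino acids with sodium, ASCT2 with a preference for glutamine. SNAT1 (SLC38A1) and SNAT2 (SLC38A2) bring in glutamine, alanine and other small neutral amino acids together with sodium, and the substrates they build up can be spent by the exchangers.

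Sequence around the start sites of these genes is shown first, and its part in the changes reported below was not tested. The transcription factor ATF4, which is translated when amino acids run short, and its partners of the C/EBP family bind composite elements of the form TGATGNAA, and MYC and related factors bind the E-box CACGTG. Both motifs were searched on both strands in RefSeq windows of GRCh38.p14 that reach from 250 bases before to 50 bases after each start site. Of the 10 transporters, 9 were searched, with 18 windows in all, and SLC7A2 was not searched. TGATGNAA occurred in 5 of 9 transporters and in 5 of their 18 windows, and in 3.62% of 35116 windows and 4.46% of 27305 genes over the whole collection. The transporters had more windows per gene than the collection, so for either motif they had more places per gene to match. The matches lie in capitals in these stretches, each read 5′ to 3′ on its gene's strand, so that matches on the other strand appear reverse-complemented (SLC1A4 and SLC3A2):
SLC1A4, chr2:64989381-64989410, plus strand: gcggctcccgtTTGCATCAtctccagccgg
SLC3A2, chr11:62881725-62881748, plus strand: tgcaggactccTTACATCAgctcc
SLC38A1, chr12:46266502-46266531, minus strand: tcagacccgaaTGATGAAAagggatcagct
SLC7A1, chr13:29595663-29595692, minus strand: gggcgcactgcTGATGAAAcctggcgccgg
SLC1A5, chr19:46784893-46784922, minus strand: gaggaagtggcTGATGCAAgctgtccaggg
Counted from the start site, the first base of the match lay at -7 in SLC1A4, 38 in SLC3A2, -4 in SLC38A1, 8 in SLC7A1 and -97 in SLC1A5. The matches in SLC1A4, SLC3A2, SLC38A1 and SLC1A5 each lay in only 1 of several windows of the gene and away from the gene start in the deposited table, and the match in SLC7A1 lay at that start. A match is a run of letters and not a shown binding site.

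CACGTG occurred in 3 of 9 transporters and in 3 of 18 windows, against 7.26% of windows and 8.77% of genes over the collection. These were SLC7A5, whose window lies at the deposited gene start, and SLC7A8 and SLC1A5, whose matches lie in 1 of several windows and away from that start. The match is in capitals:
SLC7A8, chr14:23154506-23154533, minus strand: acaattagaaaCACGTGctcagttcctt
SLC1A5, chr19:46787327-46787354, minus strand: gcgggagtggtCACGTGgacaggacggg
For SLC7A5 and SLC38A2, which moved in opposite directions at 35 nm, longer upstream stretches of GRCh38.p14 are given, 250 bases with 79.6% GC for SLC7A5 and 156 bases with 73.7% GC for SLC38A2. The capitals in SLC7A5 again mark CACGTG, 130 bases before the start site, and neither motif was found in the windows of SLC38A2:
SLC7A5, chr16:87869508-87869757, minus strand: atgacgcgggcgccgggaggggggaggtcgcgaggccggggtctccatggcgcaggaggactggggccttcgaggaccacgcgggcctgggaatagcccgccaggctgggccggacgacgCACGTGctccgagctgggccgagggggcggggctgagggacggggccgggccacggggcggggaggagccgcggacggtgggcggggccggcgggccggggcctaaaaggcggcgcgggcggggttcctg
SLC38A2, chr12:46372868-46373023, minus strand: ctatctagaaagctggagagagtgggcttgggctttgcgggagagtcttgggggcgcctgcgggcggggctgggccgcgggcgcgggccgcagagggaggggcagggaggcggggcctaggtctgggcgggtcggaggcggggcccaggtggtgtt

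Levels are deposited FPKM, fragments counted per kilobase of a gene and scaled by library size, so levels of different genes may be set side by side per length. Each change is a difference of group means on the log2(FPKM + 1) scale, tested with limma and adjusted by Benjamini-Hochberg over the 12176 genes that averaged 1 FPKM or more. A gene is said to rise or fall where its adjusted p was under 0.05. SLC7A8 lay below the filter, and the other 9 transporters were tested. Bulk RNA cannot tell fewer cells of a type from less RNA per cell, and the level of a transcript is not the amount or the activity of a carrier.

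Gene reads numbered 9472317 to 10678269 per library. Endothelial markers were present at low levels: 7 of 12 averaged at least 1 FPKM, with summed levels of 19.4 to 20.8 FPKM in controls, 19.0 to 22.6 FPKM at 35 nm and 18.8 to 21.3 FPKM at 58 nm. CLDN5, the defining claudin of brain endothelial junctions, averaged 0.117 FPKM in controls, and the endothelial growth factor receptor KDR was at 0 in all controls. Of 6 pericyte and smooth muscle markers 3 averaged at least 1 FPKM, with sums of 38.9 to 41.9, 38.3 to 43.0 and 41.1 to 43.6 FPKM, and within that sum PDGFRB went from 24.0 ± 1.15 FPKM in controls to 19.1 ± 1.03 at 35 nm while CSPG4 went from 14.3 ± 0.474 to 18.5 ± 1.37 (SD, n = 4). None of 4 epithelial, 4 astrocyte and 4 leukocyte markers averaged 1 FPKM, and CDH1, KRT5, AQP4 and CD3E were at 0 throughout. The libraries also differed in how expression relative to the others followed GC content across genes, with Spearman's rho of -0.46 to -0.23 among controls, between 0.15 and 0.55 at 35 nm and between -0.30 and 0.36 at 58 nm, and library 1 of the 58 nm group stood apart with the highest rho of its group for GC and a rho of -0.32 with gene length. The part of these differences in the results was not tested beyond the refits given below, in which trends with length and GC were removed from each library.

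After 35 nm particles, 7 of the 9 tested transporters rose and 1 fell. The risers were SLC7A5, SLC7A6, SLC3A2, SLC7A1, SLC7A2, SLC1A4 and SLC1A5, by 0.20 to 0.58 on the log2 scale, and SLC38A2, the most abundant of the set, fell by 0.28. Among all 12176 tested genes 35.4% passed in either direction, 20.2% higher and 15.2% lower. The share was larger among genes of higher level: with the filter at 5 FPKM 3643 of 7664 genes passed, 2249 of them higher. At that filter 7 transporters passed, 6 of them higher. The 4 libraries at 35 nm did not overlap the 4 controls for the same 8 transporters, 7 above and 1 below, where 36% of all tested genes did not overlap, 19.7% above and 16.3% below. The median change was 0.24 over the 9 transporters and 0.0031 over all tested genes, and the median absolute change was 0.28 against 0.15. After 58 nm particles 0 of 9 transporters passed limma's test against control, where 4.13% of genes did, and none had groups that did not overlap, where 13.5% of genes did. At an unadjusted p under 0.05 there were 3, SLC7A2, SLC38A1 and SLC38A2. The share of all tested genes at that threshold was not taken, so this count has nothing to be set against. With limma-voom on recovered reads 0 transporters passed as well, where 730 of the 12176 genes did. Between the particle sizes 8 of 9 transporters were lower at 58 nm than at 35 nm, SLC38A2 being the exception, where 11.4% of genes passed and 7.81% were lower. For the same 8 all libraries at 58 nm lay below all at 35 nm, where 9.9% of genes did so and 16.2% did not overlap in either direction. The comparisons share libraries, the 4 controls between both particle sizes and the 4 libraries at 35 nm between the first and the third, so their results are not independent.

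**Figure D1:**
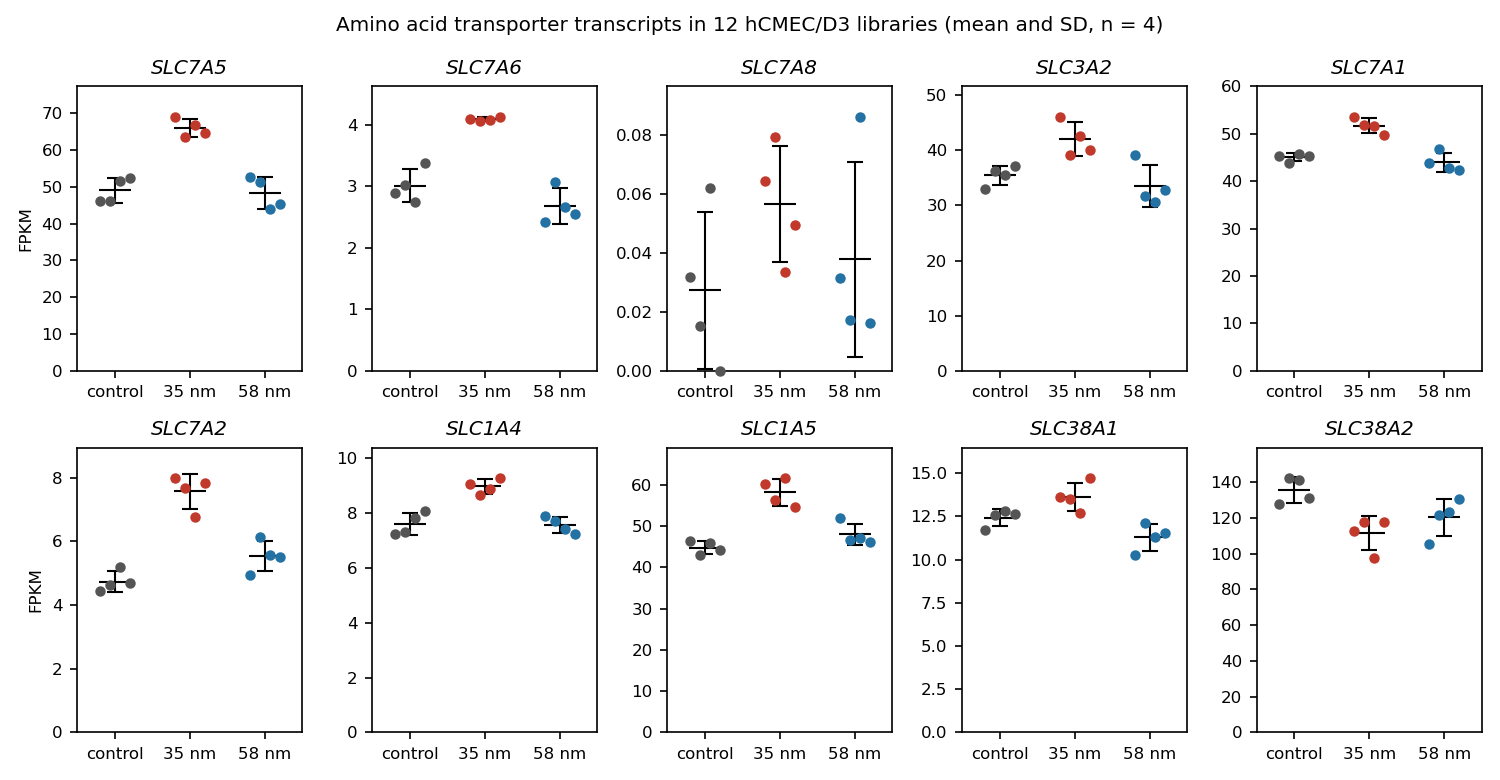
Deposited FPKM of the 10 transporters in each library, 1 panel per gene, with control in grey, 35 nm in red and 58 nm in blue; points are libraries, lines the mean and SD of 4 libraries, and each y axis starts at 0. At 35 nm 7 genes sit wholly above the controls and SLC38A2 wholly below, and the 58 nm points overlap the controls in every panel.

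**Figure D2:**
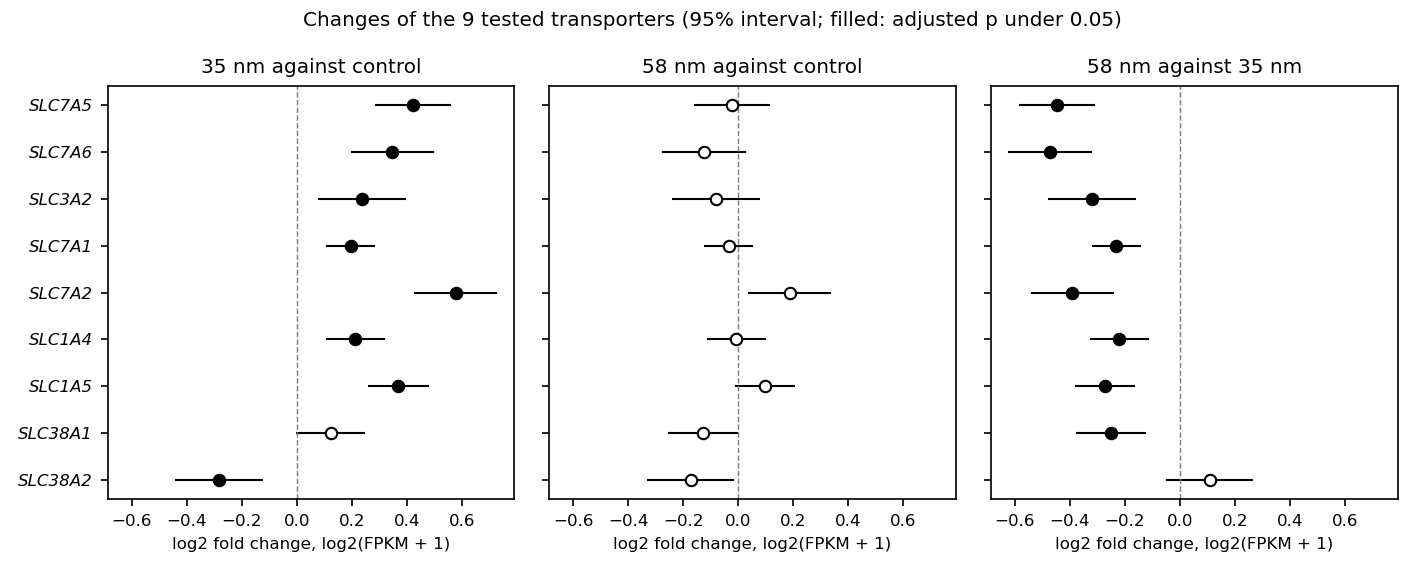
Log2 fold changes of the 9 tested transporters in the 3 comparisons (x axis, log2(FPKM + 1) scale), with 95% intervals; filled points have an adjusted p under 0.05. There are 8 filled points in the comparison of 35 nm with control, 0 in that of 58 nm with control and 8, all left of 0, in that of 58 nm with 35 nm.

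Levels spanned a wide range. SLC38A2 averaged 135 ± 7.17 FPKM in controls (SD, n = 4 here and below), which placed its mean over the 12 libraries at percentile 98.4 of the tested genes. SLC7A5 came next with 49.0 ± 3.33, then SLC7A1 with 45.0 ± 0.875, SLC1A5 with 44.8 ± 1.57, SLC3A2 with 35.4 ± 1.80, SLC38A1 with 12.4 ± 0.496, SLC1A4 with 7.61 ± 0.395, SLC7A2 with 4.74 ± 0.321 and SLC7A6 with 3.01 ± 0.273 FPKM. In controls the libraries of SLC1A5 overlapped those of SLC7A1 and, in library 1, reached just above the lowest of SLC7A5, so the order of these 3 rests on their means, and the neighbours from SLC3A2 downwards were apart. At 35 nm SLC1A5 lay above SLC7A1 and all neighbours were apart. At 58 nm SLC7A5, SLC1A5 and SLC7A1 overlapped from neighbour to neighbour.

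SLC7A5 (ENSG00000103257, GRCh38 chromosome 16, 87830023 to 87869488, minus strand), the light chain of the leucine and L-DOPA exchanger, stood in libraries 1 to 4 at 46.1, 46.2, 51.4 and 52.3 FPKM in controls, at 69.1, 63.6, 66.8 and 64.7 at 35 nm and at 52.6, 51.4, 44.0 and 45.4 at 58 nm. Every library at 35 nm was above every other library, and controls and 58 nm overlapped. The rise at 35 nm came to 0.42 (SE 0.0625, 95% interval 0.29 to 0.56, adjusted p = 0.000262), or 1.35 times the control mean. For 58 nm against control the change was -0.02 with an interval of -0.16 to 0.11 (adjusted p = 0.885), and against 35 nm the transcript was lower by a log2 change of -0.45 (adjusted p = 0.000929). The pseudogene SLC7A5P1, a short copy on the same chromosome, averaged 1.20 ± 1.28 FPKM in controls, 2.01 ± 1.54 FPKM at 35 nm and 1.72 ± 0.290 FPKM at 58 nm, and SLC7A5P2 was listed at 0 throughout. The sources used here do not say how reads that fit several places were shared. An antisense gene at 0.066 FPKM overlaps 5.71% of the exon bases of SLC7A5.

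SLC7A6 (ENSG00000103064, chromosome 16, 68264516 to 68301823, plus strand), whose product y+LAT2 exports arginine in exchange for glutamine and sodium, was the least abundant tested member. Its FPKM values were 2.89, 3.01, 2.75 and 3.38 in controls, 4.10, 4.06, 4.08 and 4.13 at 35 nm and 2.41, 3.08, 2.67 and 2.55 at 58 nm. The 35 nm libraries were close together and all above the rest, with a rise of 0.35 (SE 0.0687, adjusted p = 0.00188). The change at 58 nm was -0.12 (95% interval -0.27 to 0.023, adjusted p = 0.337), and the step from 35 nm to 58 nm was -0.47 (adjusted p = 0.00115). SLC7A6 shares 44.4% of its exon bases with SLC7A6OS on the opposite strand, which averaged 1.63 FPKM, and 11.1% with another antisense gene. No source used here says that counting kept strand, so reads of these genes cannot be told apart in the shared bases.

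The heavy chain SLC3A2 (ENSG00000168003, chromosome 11, 62856102 to 62888875, plus strand), without which the light chains do not stay at the cell surface, measured 32.9, 36.2, 35.5 and 37.1 FPKM in controls, 46.1, 39.2, 42.5 and 40.1 at 35 nm and 39.0, 31.7, 30.6 and 32.8 at 58 nm. Library 1 was the highest at both particle sizes and the lowest among controls, and only the 35 nm group was free of overlap with the others. The rise at 35 nm was 0.24 (SE 0.0725, 95% interval 0.081 to 0.39, adjusted p = 0.0220). It was the least stable of the rises. The adjusted p was 0.0636 without control library 1, 0.0707 without library 1 and 0.0520 without library 3 of the 35 nm group. It was 0.0712 with no filter, 0.0836 after quantile normalization and 0.108 after removal of length and GC trends. Against control the 58 nm change was -0.082 (95% interval -0.24 to 0.074, adjusted p = 0.572), and against 35 nm it was -0.32 (adjusted p = 0.0139).

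SLC7A8 (ENSG00000092068, chromosome 14, 23125295 to 23183674, minus strand), the light chain LAT2 with a broader choice of neutral substrates than LAT1, was near the limit of detection. Its recovered reads numbered 2, 1, 4 and 0 in controls, 4, 5, 2 and 3 at 35 nm and 2, 1, 5 and 1 at 58 nm, at most 0.0862 FPKM. With no filter its change was 0.041 at 35 nm (95% interval -0.022 to 0.10, adjusted p = 0.501) and 0.015 at 58 nm (adjusted p = 0.893), and no difference was detectable at this depth.

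Light chains summed over the heavy chain describe how the transcripts of these partners were balanced. SLC7A5, SLC7A6 and SLC7A8 together came to 1.47 ± 0.0763 times SLC3A2 in controls, 1.68 ± 0.0641 at 35 nm and 1.53 ± 0.136 at 58 nm. All 4 ratios at 35 nm exceeded all 4 in controls, and the 58 nm ratios spread over both. With SLC7A11, the cystine and glutamate exchanger that binds the same heavy chain, the ratios were 1.97 ± 0.0973, 2.11 ± 0.133 and 2.02 ± 0.206, and the groups overlapped. SLC7A11 itself averaged 17.7 ± 1.65 FPKM in controls and 18.3 ± 2.69 at 35 nm (log2 change 0.034, adjusted p = 0.828). These ratios are descriptions, with no test.

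Of the cationic carriers, SLC7A2 had the largest change of the set at 35 nm. SLC7A2 (ENSG00000003989, chromosome 8, 17497088 to 17570573, plus strand), whose product CAT-2 has a low-affinity liver form and an inducible form that feeds arginine to nitric oxide synthase in macrophages, was at 4.44, 4.63, 5.19 and 4.69 FPKM in controls, 7.99, 7.69, 6.77 and 7.82 at 35 nm and 4.96, 6.13, 5.56 and 5.50 at 58 nm. The 35 nm libraries lay above all others, and 3 of 4 libraries at 58 nm lay above all controls. Its mean at 35 nm was 1.60 times that of controls, a log2 change of 0.58 (SE 0.0680, 95% interval 0.43 to 0.72, adjusted p = 4.89e-05). At 58 nm the change was 0.19 (95% interval 0.040 to 0.33, adjusted p = 0.146), and it reached 0.26 with an adjusted p of 0.0207 after removal of length and GC trends. Between sizes the difference was -0.39 (adjusted p = 0.00341).

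SLC7A1 (ENSG00000139514, chromosome 13, 29509410 to 29595688, minus strand) encodes CAT-1, the widely expressed high-affinity arginine carrier. It measured 45.3, 43.7, 45.6 and 45.4 FPKM in controls, 53.6, 51.8, 51.6 and 49.8 at 35 nm and 43.7, 46.8, 42.9 and 42.3 at 58 nm. The 35 nm group was apart from both others, which overlapped. It rose by 0.20 at 35 nm (SE 0.0390, 95% interval 0.11 to 0.28, adjusted p = 0.00200), and this came to 0.076 with an adjusted p of 0.130 after quantile normalization. The 58 nm change was -0.035 (95% interval -0.12 to 0.049, adjusted p = 0.665), and from 35 nm to 58 nm the difference was -0.23 (adjusted p = 0.00282). SLC7A1 exceeded SLC7A2 by a ratio of 9.53 ± 0.590 in controls, 6.86 ± 0.534 at 35 nm and 7.96 ± 0.572 at 58 nm, and the ratios at 35 nm lay below all control ratios.

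Both sodium-dependent exchangers of small neutral amino acids rose at 35 nm. SLC1A5 (ENSG00000105281, chromosome 19, 46774883 to 46788594, minus strand), the glutamine exchanger ASCT2, read 46.3, 42.9, 45.8 and 44.1 FPKM in controls, 60.2, 56.3, 61.6 and 54.7 at 35 nm and 51.9, 46.6, 47.2 and 46.2 at 58 nm. The lowest 35 nm library was above the highest of the other 2 groups, and 58 nm overlapped the controls by a narrow margin. Its change at 35 nm was 0.37 (SE 0.0490, 95% interval 0.26 to 0.48, adjusted p = 0.000113), and 0.20 (adjusted p = 0.000301) with both trends removed. At 58 nm it was 0.097 (95% interval -0.0089 to 0.20, adjusted p = 0.295) against control and -0.27 (adjusted p = 0.00391) against 35 nm. An antisense gene at 0.020 FPKM overlaps 23.4% of its exon bases.

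SLC1A4 (ENSG00000115902, chromosome 2, 64988477 to 65023865, plus strand), whose product ASCT1 carries serine, alanine, cysteine and threonine, gave 7.24, 7.32, 7.81 and 8.06 FPKM in controls, 9.07, 8.66, 8.87 and 9.28 at 35 nm and 7.88, 7.72, 7.42 and 7.22 at 58 nm. Here too the 35 nm libraries were above all others. SLC1A4 rose by 0.21 at 35 nm (SE 0.0482, adjusted p = 0.00438). Its change at 58 nm was -0.0072 (95% interval -0.11 to 0.097, adjusted p = 0.955), and from 35 nm to 58 nm it was -0.22 (adjusted p = 0.0120). The ratio of SLC1A5 to SLC1A4 was 5.90 ± 0.378 in controls, 6.49 ± 0.442 at 35 nm and 6.34 ± 0.224 at 58 nm, with overlapping groups.

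The sodium-coupled importers behaved unlike each other. SLC38A2 (ENSG00000134294, chromosome 12, 46358189 to 46372867, minus strand), the SNAT2 carrier that cells make more of when starved of amino acids, was at 128, 142, 141 and 131 FPKM in controls, 113, 118, 97.4 and 118 at 35 nm and 105, 122, 123 and 130.3 at 58 nm. All 35 nm libraries were below all controls, library 3 of that group lowest of all, while the 58 nm libraries overlapped both groups. SLC38A2 fell by 0.28 at 35 nm on the log2 scale (change -0.28, SE 0.0717, 95% interval -0.44 to -0.13, adjusted p = 0.00848). This gene has the lowest GC content of the set, 38.1% over its longest transcript, and after removal of length and GC trends the change was -0.10 (adjusted p = 0.0815). At 58 nm the change was -0.17 (95% interval -0.33 to -0.019, adjusted p = 0.197) against control, and against 35 nm it was 0.11 (95% interval -0.046 to 0.26, adjusted p = 0.344).

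SLC38A1 (ENSG00000111371, chromosome 12, 46183063 to 46270017, minus strand), the related glutamine importer SNAT1, lies near SLC38A2 on the same chromosome. Its values were 11.7, 12.6, 12.8 and 12.6 FPKM in controls, 13.6, 13.5, 12.7 and 14.7 at 35 nm and 10.2, 12.1, 11.3 and 11.6 at 58 nm. Library 3 at 35 nm fell within the control range, and the 35 nm and 58 nm groups were apart. SLC38A1 had a change of 0.12 at 35 nm that did not pass (95% interval -0.00014 to 0.25, adjusted p = 0.112), and it passed at 0.20 (adjusted p = 0.00674) once the length trend was removed and at 0.29 (adjusted p = 0.000190) with both trends removed. Its GC content is 41.3%. At 58 nm it had a change of -0.13 against control (95% interval -0.25 to -0.0045, adjusted p = 0.235), and it was lower than at 35 nm by a change of -0.25 (adjusted p = 0.0142).

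Within each library SLC38A2 exceeded SLC38A1 by a ratio of 10.9 ± 0.380 in controls, 8.17 ± 0.453 in the 35 nm group and 10.6 ± 0.570 in the 58 nm group. The ratio of SLC38A2 to SLC1A5, an importer and an exchanger that both carry glutamine, was 3.03 ± 0.231 in controls, 1.92 ± 0.259 at 35 nm and 2.52 ± 0.338 at 58 nm. In both ratios the 35 nm libraries lay below all controls. SLC38A2 and SLC1A5 have the lowest and the highest GC content of the set, 38.1% and 61.3%. With length and GC trends removed, their limma changes at 35 nm were -0.10 (adjusted p = 0.0815) and 0.20 (adjusted p = 0.000301). The ratios, sums and shares given here use deposited FPKM with no trend removed, and the part of GC content in them was not tested. Summed over the 10 transporters, the level was 338 ± 9.56 FPKM in controls, 364 ± 9.85 FPKM at 35 nm and 321 ± 5.46 at 58 nm. Without SLC38A2 the sums were 202 ± 6.08, 252 ± 9.03 and 201 ± 10.03 FPKM, and the share of SLC38A2 in the whole sum was 40.1 ± 1.44%, 30.6 ± 2.32% and 37.4 ± 3.13%.

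**Figure D3:**
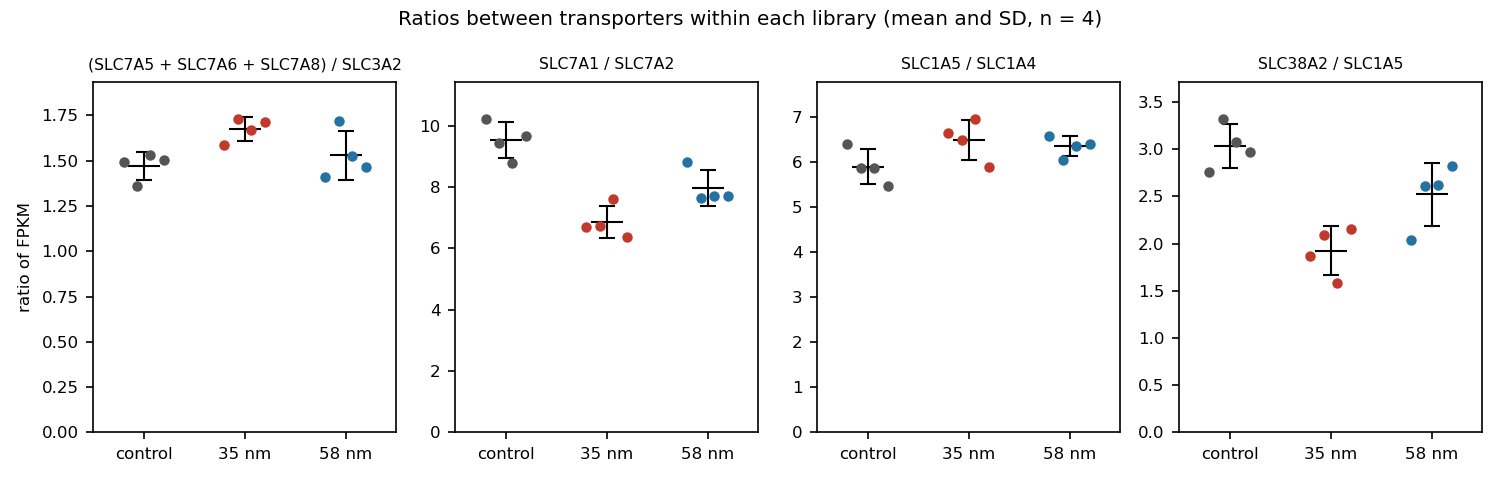
Ratios of FPKM between transporters within each library (y axis, from 0), with points for libraries and lines for the mean and SD of 4 libraries in control, 35 nm and 58 nm. The ratio of SLC7A1 to SLC7A2 and that of SLC38A2 to SLC1A5 are lowest at 35 nm (means of 6.86 and 1.92), and the ratio of light chains to SLC3A2 is highest there (1.68). Values are deposited FPKM, from which no trend with gene length or GC content was removed.

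Scaling and trend removal left the direction of all 9 transporters at 35 nm as it was in the refits run, and changed which of them passed. With the length and GC trends removed, SLC7A1, SLC7A2, SLC7A5, SLC7A6, SLC1A4, SLC1A5 and SLC38A1 passed as higher, and SLC3A2 and SLC38A2 did not pass. SLC7A5 then had a change of 0.30 (adjusted p = 0.00110) and SLC7A2 one of 0.74 (adjusted p = 1.26e-06). Both trends together were removed by subtracting a smooth curve per library, a step that takes away any true change that follows GC content as well.

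**Figure D4:**
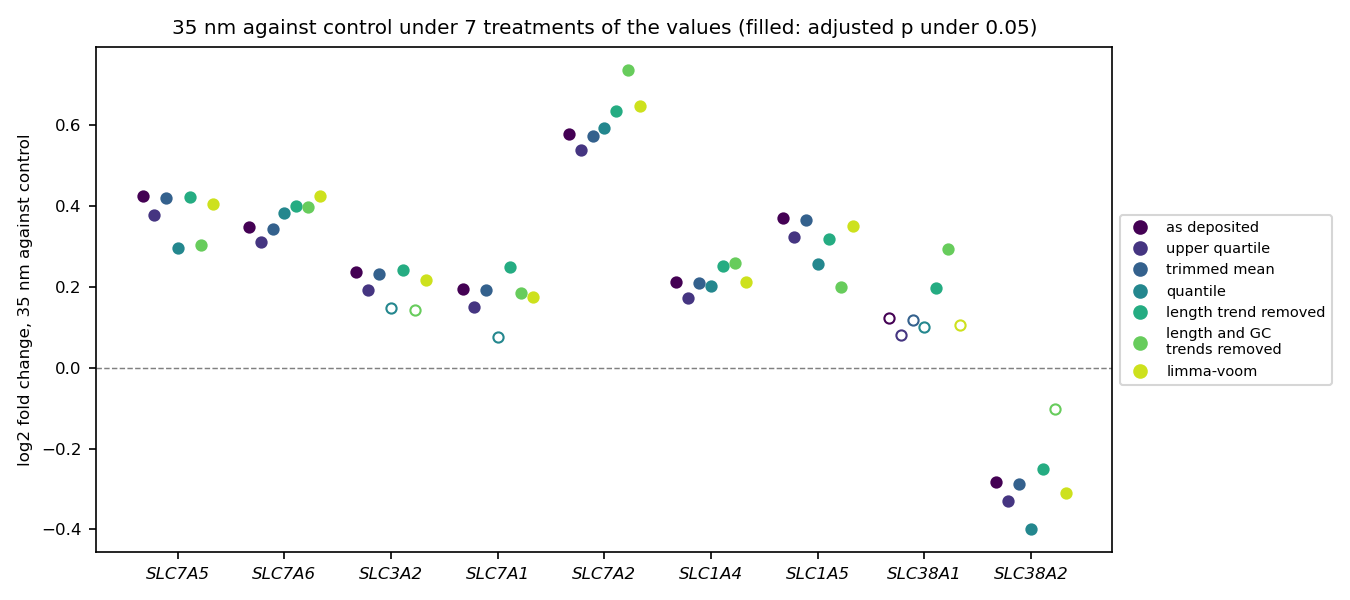
Log2 fold change of 35 nm against control (y axis) for the 9 tested transporters under 7 treatments of the values, 1 colour each; limma-voom values are on its own log2 scale, and filled points have an adjusted p under 0.05. All points of SLC38A2 are below 0 and all points of the others above it, and the open points belong to SLC3A2, SLC7A1, SLC38A1 and SLC38A2.

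A further 45 genes for amino acid carriers were listed, of which 19 were tested and 13 were at 0 in every library. At 35 nm 3 of the 19 were higher and 3 lower, where 20.2% and 15.2% of all tested genes were, and the median change was -0.062. SLC43A2, the sodium-independent neutral amino acid carrier LAT4, rose from 2.45 ± 0.365 to 3.96 ± 0.350 FPKM, a change of 0.53 (adjusted p = 0.000505), and it averaged 3.21 ± 0.281 at 58 nm (adjusted p = 0.0777). SLC6A15, a sodium-dependent carrier of branched-chain amino acids and proline, fell from 4.66 ± 0.258 to 3.19 ± 0.407 FPKM (change -0.44, adjusted p = 0.000542). SLC38A6 went from 3.04 ± 0.294 to 2.37 ± 0.386 FPKM (change -0.27, adjusted p = 0.0377), and its adjusted p was 0.0931, 0.0710 and 0.0887 without control library 1, 3 or 4, and 0.114 and 0.0985 without library 1 or 3 of the 35 nm group. SLC38A6 also missed the threshold with no filter (adjusted p = 0.0985), after quantile normalization (0.0696) and with both trends removed, where its change was -0.16 (adjusted p = 0.174). The others called were SLC38A5, a glutamine carrier at 18.0 ± 0.788 and 20.6 ± 0.545 FPKM, SLC38A10 at 18.5 ± 0.729 and 21.9 ± 1.01, and the taurine carrier SLC6A6 at 16.4 ± 0.386 and 14.0 ± 0.946 (adjusted p = 0.0116, 0.00820 and 0.0163), chosen after their values were seen. With both trends removed SLC38A5 and SLC38A10 had adjusted p = 0.30 and 0.0564, and without library 1 of the 35 nm group SLC6A6 had 0.0528. At 58 nm SLC6A15 was the 1 gene of 19 called, where 4.13% of all tested genes were. It averaged 3.60 ± 0.178 FPKM (change -0.30, adjusted p = 0.0343), and leaving out any of the 8 libraries compared gave 0.0519 to 0.0995. With both trends removed its change was -0.20 (adjusted p = 0.0799).

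**Figure D5:**
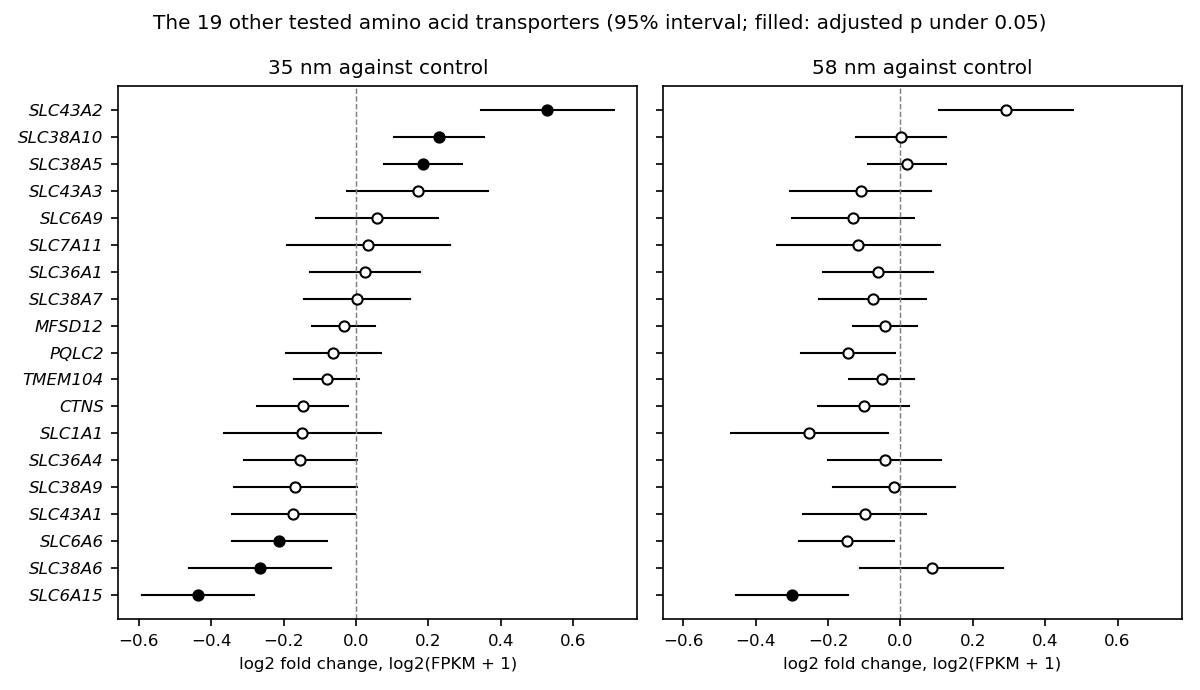
Log2 fold changes of the 19 other tested amino acid transporters (x axis, log2(FPKM + 1) scale) at 35 nm and 58 nm against control, with 95% intervals; filled points have an adjusted p under 0.05. Filled points lie on both sides of 0 at 35 nm (3 and 3), and SLC6A15 is the only filled point at 58 nm.

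Genes that sense amino acids or answer to their lack were listed as a second group of 44, of which 43 were found and 38 tested. At 35 nm 9 were higher and 8 lower, where 20.2% and 15.2% of all tested genes were, and the median change was 0.016. The number called ranged from 8 to 20 with 1 library left out, being 8 without library 1 of the 35 nm group and 11 without control library 2. It was 9 with no filter on low values (6 higher and 3 lower) and 11 with both trends removed. ATF4, the factor whose motif was searched above and whose gene was singled out after its values were seen, was at 108 ± 3.43 FPKM in controls, 131 ± 5.84 FPKM at 35 nm and 108 ± 7.78 at 58 nm. It rose by 0.28 at 35 nm (adjusted p = 0.00113), had a change of 0.0022 at 58 nm (95% interval -0.11 to 0.11, adjusted p = 0.990) and was lower at 58 nm than at 35 nm by a change of -0.27 (adjusted p = 0.00454). ASNS, the asparagine synthetase that ATF4 is known to induce, was below the filter with 0.803 ± 0.0859, 0.557 ± 0.112 and 0.513 ± 0.0538 FPKM, its values in both treated groups being below all controls. Of the C/EBP family, CEBPB rose at 35 nm (change 0.36, adjusted p = 0.0364), from 60.1 ± 4.07 to 77.7 ± 11.1 FPKM with overlapping groups. CEBPG fell (change -0.12, adjusted p = 0.0367), with all 35 nm libraries below all controls. DDIT3 (-0.43, adjusted p = 0.0503), TRIB3 (-0.081, 0.296), NUPR1 (0.028, 0.806), SESN2 (0.057, 0.442) and CHAC1 (0.28, 0.0791) did not pass. They too were picked after their values were seen, and a link of these changes to ATF4 was not tested.

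DDIT4, an inhibitor of mTORC1 signalling, rose from 23.8 ± 1.56 to 35.8 ± 3.14 FPKM (change 0.57, adjusted p = 0.0177). Its adjusted p was 0.0512 without library 1 of the 35 nm group, and with both trends removed its change was 0.35 (adjusted p = 0.0557). LAMTOR4, a subunit of the lysosomal scaffold on which mTORC1 is activated by amino acids, rose from 15.8 ± 0.940 to 22.1 ± 1.72 FPKM (change 0.46, adjusted p = 0.00373). FNIP1, which acts with folliculin on the Rag GTPases of that scaffold, fell from 9.71 ± 1.01 to 6.84 ± 1.07 FPKM (change -0.46, adjusted p = 0.00318). The folliculin gene FLCN was at 9.64 ± 0.371 FPKM in controls, 7.65 ± 0.483 FPKM at 35 nm and 7.88 ± 0.536 at 58 nm, with changes of -0.30 (adjusted p = 0.00156) and -0.26 (adjusted p = 0.0241). It was the only gene of the 38 tested in this group called at 58 nm, where 4.13% of all tested genes were. That call had adjusted p = 0.0622, 0.0534 and 0.0649 without control library 1, 2 or 3. It also missed the threshold with no filter (0.0618) and with a replicate block and the length trend removed (0.0591).

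Of 18 genes that use the carried amino acids, 12 were tested, and 6 were higher and 0 lower at 35 nm, where 20.2% and 15.2% of all tested genes were, and the median change was 0.17. With no filter on low values 2 were called. ODC1, which makes polyamines from ornithine, went from 34.1 ± 1.01 FPKM in controls to 69.2 ± 2.26 at 35 nm and 47.3 ± 3.91 at 58 nm. Its changes were 1.00 (adjusted p = 9.84e-08) and 0.46 (adjusted p = 0.000156), and 58 nm was below 35 nm by a change of -0.54 (adjusted p = 5.95e-05). ASS1, which rebuilds arginine from citrulline, rose from 1.89 ± 0.395 to 3.33 ± 0.604 FPKM (change 0.58, adjusted p = 0.0149, and 0.0518 with no filter). GOT1, the cytosolic aspartate aminotransferase, rose from 14.9 ± 1.10 to 17.7 ± 0.139 FPKM (change 0.24, adjusted p = 0.0172), and its adjusted p was 0.169 with both trends removed and 0.0525 without control library 1.

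The genes whose pattern over the 12 libraries was most like that of SLC7A5 were looked for by the mean absolute difference of centred log2(FPKM + 1) values over the 12176 tested genes. The nearest was NRP2, a co-receptor for semaphorins and vascular growth factors, with a difference of 0.0461 and levels of 5.56 ± 0.387, 7.91 ± 0.275 and 5.46 ± 0.396 FPKM in controls, 35 nm and 58 nm. TNFRSF10B, a death receptor for TRAIL, followed with 0.0471, and PHLDA3, an inhibitor of AKT signalling, with 0.0495. Of the other transporters SLC7A6 ranked 100, SLC1A5 170, SLC3A2 228, SLC1A4 267, SLC7A1 498, SLC7A2 1095, SLC38A1 1825 and SLC38A2 10447.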

How the data were processed

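RNA from 12 hCMEC/D3 libraries was sequenced, and the authors deposited 1 table of FPKM values for 58735 genes, with gene lengths, per the file headers. The submitters' processing notes name Bowtie 0.12.2 and the build hg19. All 58735 identifiers, positions and lengths in the table nevertheless equalled those of GENCODE release 29 on GRCh38, so coordinates are given in GRCh38 as deposited. The sources used here do not name the counting tool, the strand setting or the handling of multiply aligned reads.

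FPKM times gene length gave whole reads for 100% of values within 0.01 reads. Each library held from 9472317 to 10678269 gene reads, and a floor of 3 reads over 1 kb equalled 0.274 to 0.313 FPKM. Such floors cover counting error only. Values were tested as log2(FPKM + 1), a scale that understates changes of low genes, for the 12176 genes averaging 1 FPKM or more, with limma 3.58.1 in R 4.3.3 (trended, robust prior) as 3 group means over all 12 libraries. Tests were two-sided, adjusted by the Benjamini-Hochberg method over all genes tested, with a threshold of 0.05. The model was tested on simulated data first. Alternatives were a pseudocount of 0.1, a filter of 5 FPKM or none, upper-quartile, trimmed-mean and quantile scaling, limma-voom on recovered reads, removal of trends with length and GC (lowess, span 0.3), a replicate block, and leaving out each library.

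The 10 transporters and the 3 other gene lists were chosen with earlier results of these data known. Named from those lists were the 3 called genes with the largest absolute change in each comparison with control. SLC7A11, ATF4, ASNS, CEBPB, CEBPG, DDIT3, TRIB3, NUPR1, SESN2, CHAC1, SLC38A5, SLC38A10, SLC6A6 and, at 35 nm, FLCN were added after their values were seen. So were the between-transporter ratios. Promoter windows are those of RefSeq on GRCh38.p14. No protein sequence was used here.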

Additional observations from a re-analysis of the deposited data

Results flagged for a closer look

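The 10 transporters in 3 groups gave 30 sets of 4 libraries, in which the gap between an extreme library and its nearest neighbour was set against the range of the group. A gap over Dixon's 95% critical value for 4 values occurred in 2 sets, and chance gives about 1 in 20. SLC7A1, the arginine carrier CAT-1, had its lowest control value of 43.7 FPKM in library 2, where the nearest control was 45.3 FPKM (ratio 0.845). SLC38A1, the importer SNAT1, had its lowest control value of 11.7 FPKM in library 1, where the nearest was 12.6 FPKM (ratio 0.833).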

How the results depend on the processing

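At 35 nm against control 8 of 9 transporters passed with all libraries, and 7 to 8 passed when 1 library was left out, 7 with no filter, 7 at the 5 FPKM filter (where SLC7A6 was not tested), 6 after quantile normalization, 9 with the length trend removed and 7 with length and GC trends removed. At 58 nm against control the count was 0 (0 to 0 with 1 library left out), and 1, SLC7A2, with both trends removed. At 58 nm against 35 nm it was 8 (8 to 8), and 7 with no filter, where SLC3A2 had adjusted p = 0.0532. Over all genes the counts called were 4315 (3480 to 4685), 503 (228 to 560) and 1382 (723 to 2324) in these comparisons, and 252 and 723 with no filter in the last 2. The counts 4685 and 2324 came without library 1 of the 58 nm group, where the other was 373, and 560 without library 3 of the 35 nm group. At 35 nm against control the genes called were 3306 of 29636 with no filter and 3643 of 7664 at the 5 FPKM filter. Of 12176 genes, 4030 were called after quantile normalization, 4144 with the length trend removed and 3407 with both trends removed. Without library 1 of the 58 nm group 0 transporters passed against control and 8 against 35 nm. Of values with no call, the change of SLC1A4 at 58 nm turned from -0.0072 to 0.012 with the length trend removed and to 0.017 with both, and ranged from -0.028 to 0.018 with 1 library left out, and that of SLC7A5 from -0.064 to 0.021; the cause was not tested. Higher genes made up 57.1% of those called at 35 nm, and 44.7% after upper-quartile scaling.

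No label says that the replicate numbers pair libraries. Deviations of same-numbered libraries correlated at -0.065 to 0.16, and 0 of 12 libraries correlated best with their own number in both other groups at once. With a replicate block 8, 0 and 8 transporters and 4187, 453 and 1272 genes were called, and with the block and the length trend removed 9, 0 and 8 transporters and 3972, 417 and 1278 genes, SLC1A4 at 58 nm then being 0.012.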
